A study of Homo sapiens with 4 samples.

Results

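RNF43, TGFBR2 and TNFRSF19 are cell surface genes of gastrointestinal tumour signalling, and they are described here as hosts of circular RNAs (circRNAs), closed loops made when the end of a downstream exon is joined back to the start of the same or an upstream exon. The 3 genes were chosen by earlier results of these libraries, so the differences between their libraries are given as a description, with no p-value. All circRNAs assigned to them were taken, which gave 9 of 11760 circRNAs and 3 of 4410 host genes in the deposited tables. RNF43 had 2 of them, TGFBR2 had 4 and TNFRSF19 had 3, and all 9 had reads.

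The libraries came from AGS cells, an established human gastric adenocarcinoma line, transfected either with FLAG-tagged DDX5, an RNA helicase, or with the empty vector that carries the FLAG tag alone (NC). Each group had 2 libraries of RNA depleted of ribosomal RNA and treated with RNase R, a nuclease that digests linear RNA. The study calls them biological replicates but no source used here says that they came from separate cultures, so every p-value given for other genes below measures the spread between these libraries alone. The study addresses which circRNAs change when DDX5 is overexpressed.

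RNF43 is a transmembrane E3 ubiquitin ligase that takes Frizzled receptors and LRP5 and LRP6 off the cell surface, and so acts as a brake on Wnt signalling that R-spondins release. TGFBR2 is the type II receptor serine/threonine kinase of TGF-beta, which phosphorylates the type I receptor TGFBR1, which in turn phosphorylates SMAD2 and SMAD3. TNFRSF19, also called TROY, is a TNF receptor superfamily member that is a Wnt target gene and marks stem cells in gastrointestinal epithelium. All 3 genes act in the surface signalling that keeps epithelial stem cells in balance in the gut, and RNF43 and TGFBR2 are recurrently mutated in gastric and colorectal cancers.

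What identifies a circRNA is its back-splice junction, so the junctions are shown for the 7 circles made of coding sequence alone. The last 20 bases of the donor exon are in lower case and the opening 20 bases of the acceptor exon are in capitals, on the sense strand. They were assembled from GENCODE 29 transcripts of GRCh38 and were not read from the libraries.
RNF43 exon 9: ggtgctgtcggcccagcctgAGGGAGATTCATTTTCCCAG
RNF43 exons 4 to 6: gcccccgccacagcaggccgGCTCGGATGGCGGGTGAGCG
TGFBR2 exons 2 to 4: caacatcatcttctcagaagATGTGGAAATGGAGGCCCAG
TGFBR2 exons 3 to 4: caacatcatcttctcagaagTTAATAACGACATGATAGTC
TGFBR2 exons 3 to 6: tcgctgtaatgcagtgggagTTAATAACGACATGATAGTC
TGFBR2 exons 5 to 6: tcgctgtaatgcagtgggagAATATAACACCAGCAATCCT
TNFRSF19 exons 6 to 7: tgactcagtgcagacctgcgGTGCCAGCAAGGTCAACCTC

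The TGFBR2 junctions show how its circles are built from a few shared ends. The circles of exons 2 to 4 and 3 to 4 share their donor, those of exons 3 to 6 and 5 to 6 share theirs, and those of exons 3 to 4 and 3 to 6 share their acceptor, so each of these ends alone leaves a pair of circles, whereas the acceptors of exons 2 and 5 each mark a single circle. In TNFRSF19, the circles of exons 2 to 4 and 2 to 5 share an acceptor in the 5′ untranslated region.

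The submitters' notes name hg38, but the deposited coordinates differ from it and are taken to be hg19, for which no annotation was used here. Only 88 of 11760 circRNA starts fell on an exon start of GRCh38. For the 9 circles of the 3 genes, each span matched 1 run of exons in GENCODE 29, with a shift shared by all circles of a gene. Of all 7587 detected circRNAs, 7230 (95.3%) matched 1 site by span, where a shared shift was not required. Coordinates below are as deposited. Exons are numbered on RNF43-201 (10 exons), TGFBR2-202 (8 exons, the longer isoform, which includes an exon that the other main isoform skips) and TNFRSF19-202 (9 exons).

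RNF43 lies on the minus strand of chromosome 17. Its exon 9 circle spans 56434829 to 56436184, is a single coding exon of 1356 nt and covers residues 318 to 770 of the 783 residues of the ligase, which is the cytoplasmic tail after the RING domain. Among 7230 detected circRNAs that could be placed on transcripts, 496 (6.86%) were single exons, and 22 of these, this circle included, were at least as long. Its other circle, of exons 4 to 6, spans 56439905 to 56440961, holds 312 nt and covers residues 126 to 229, which include extracellular and transmembrane sequence. The 2 circles share no exon.

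TGFBR2 lies on the plus strand of chromosome 3. The circles of exons 2 to 4 (30664691 to 30691952, 435 nt, residues 32 to 177 of 592) and exons 3 to 4 (30686239 to 30691952, 360 nt, residues 57 to 177) hold sequence for the extracellular ligand-binding part. The circle of exons 5 to 6 (30713130 to 30715738, 942 nt, residues 177 to 491) holds the transmembrane segment and most of the kinase domain. A larger circle, of exons 3 to 6 (30686239 to 30715738, 1302 nt, residues 57 to 491) covers exons 3 to 4 and exons 5 to 6 together.

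TNFRSF19 lies on the plus strand of chromosome 13. Its circles of exons 2 to 4 (24164289 to 24190184, 393 nt, residues 1 to 120 of 423) and exons 2 to 5 (24164289 to 24200931, 479 nt, residues 1 to 149) hold the start codon, 34 nt of 5′ untranslated region and the cysteine-rich extracellular part. Starting at exon 2 is common, at 26.9% of placed circRNAs. The third TNFRSF19 circle, of exons 6 to 7 (24233189 to 24234629, 291 nt, residues 149 to 246) includes the transmembrane segment.

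**Figure D1:**
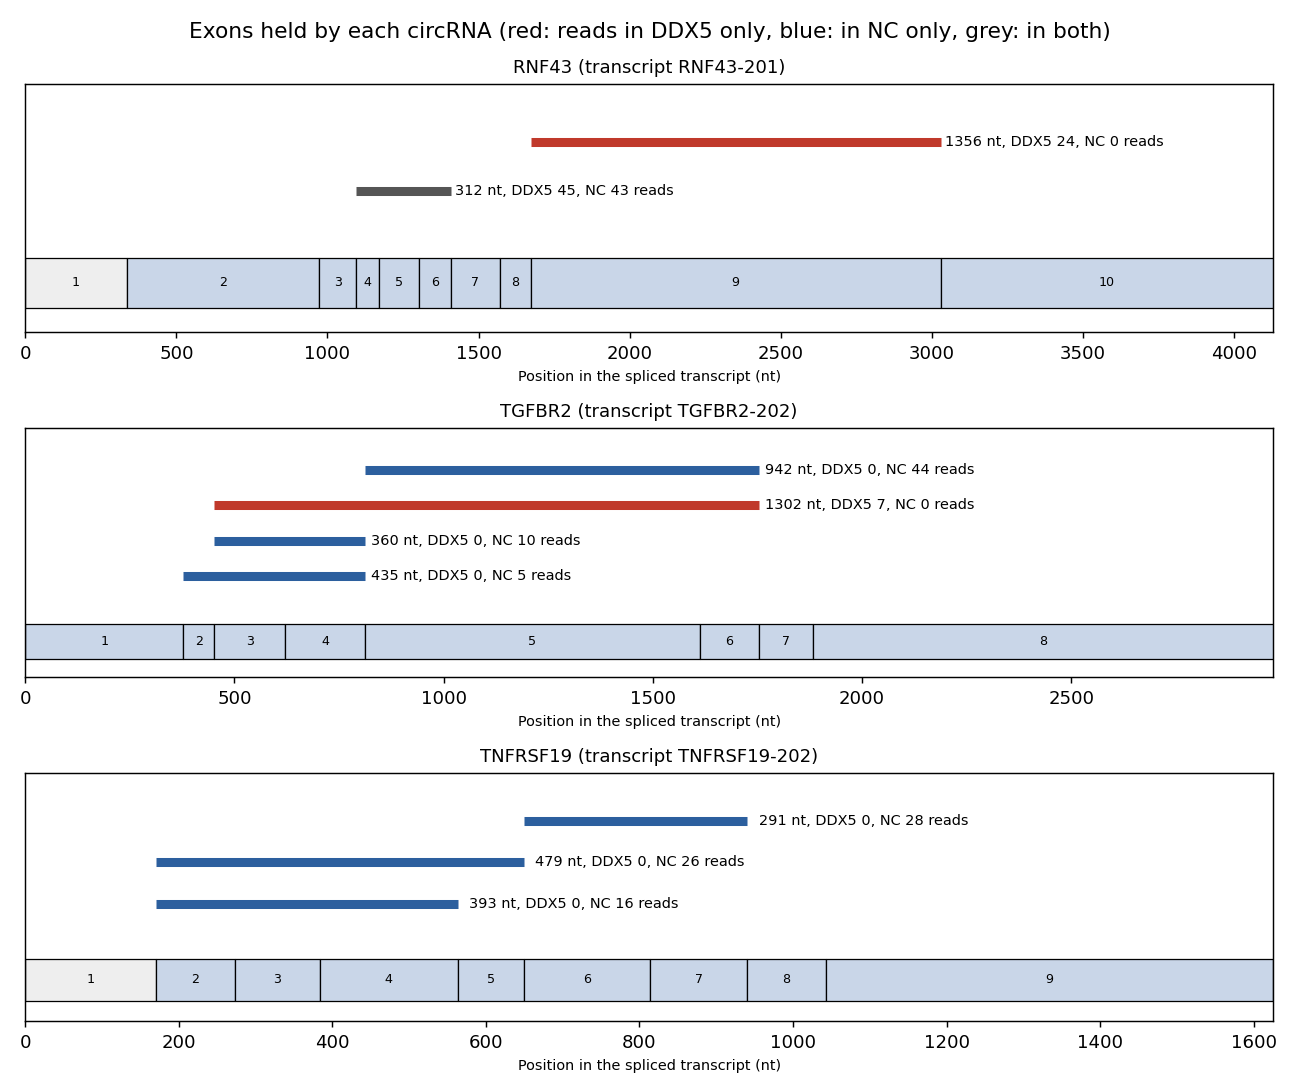
Position of each circRNA (bars) on the exons of its host transcript (numbered boxes, blue where the exon holds coding sequence and grey where it holds none), in nt of the spliced transcript, with the last exon of each gene drawn only in part. The text beside each bar gives its spliced length and its summed reads in the 2 DDX5 and the 2 NC libraries; red bars had reads in DDX5 alone, blue bars in NC alone, and the grey bar, RNF43 exons 4 to 6, in both.

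The circles share a property that played no role in choosing the genes. All 7 circles of coding sequence alone have a length that is a multiple of 3, and the reading frame of the host runs round each of them without a stop codon. The lack of a stop largely follows from that length, since only a codon formed across the junction could add a stop. Among 6257 placed circRNAs that are wholly coding, 2393 (38.2%) have such a length. Overlapping circles of a gene share exons, so the 7 are not independent, and nothing was measured here on whether any circle is translated. Of the other 2, both of TNFRSF19, the 393 nt circle is also a multiple of 3 but meets a stop at codon 125 from the start codon, and the 479 nt circle meets one at codon 149.

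Exon 4 of TGFBR2 holds a run of 10 A at residue 150, a repeat known as a site of frameshifts in tumours with defective mismatch repair. It is in the circles of exons 2 to 4, 3 to 4 and 3 to 6 and not in that of exons 5 to 6. It is shown with its flanks from the annotation, with the run in capitals.
TGFBR2 exon 4: attatgaaggAAAAAAAAAAgcctggtgag
The RNF43 exon 9 circle holds a run of 7 G at residue 657, which is likewise a known frameshift site in such tumours.
RNF43 exon 9 run: aggaaaaggcGGGGGGGtccctccgag
Allele sequences of the AGS cells were not analysed.

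Levels are given as back-splice reads and as RPM, here the reads of a circRNA per 1000000 back-splice reads of its library. Each circRNA is counted at 1 junction whatever its length. Depth was 78377 and 60178 back-splice reads for DDX5 replicates 1 and 2 and 73173 and 97961 for NC replicates 1 and 2, so that a single read is worth 10.2 to 16.6 RPM. For a count of 0 a floor of 3 reads was used, which is 30.6 to 49.9 RPM, and intervals and floors cover counting error alone. The smallest count above 0 was 2, so a 0 may also hide a single read, which the floor does not allow for. Folds given as at least a value take the other group at its observed mean and leave out the counting error of that mean. Epithelial markers had circRNA reads from 4 of 20 genes (EPCAM, CDH1, ESRP1 and GRHL2), with a summed level of 3866 and 4138 RPM in DDX5 and 3430 and 4308 RPM in NC, whereas 0 of 12 stromal markers and 1 of 12 immune markers (ITGAM, 68.3 RPM in NC replicate 1 alone) had any. DDX5 itself had 0 circRNA reads in all 4 libraries, so these tables hold no check of the overexpression. In bulk RNA, fewer cells that carry a circRNA and fewer copies per cell cannot be told apart.

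RNF43 carried the only circle of the 3 genes that was read in every library. The circle of exons 4 to 6 had 24 and 21 reads in DDX5 and 26 and 17 reads in NC, or 306 and 349 RPM against 355 and 174 RPM. The groups overlapped, with means of 328 ± 30.2 RPM (SD, n = 2) in DDX5 and 264 ± 129 RPM (SD, n = 2) in NC. The fitted log2 fold change, DDX5 over NC, was 0.21 (SE 1.24). SE values of fold changes here and below are approximate, worked back from the test statistic. This circle ranked 723 of 7587 detected circRNAs by mean RPM, the highest rank among the 9, and reads in all 4 libraries were seen for 1011 (21.6%) of the 4671 circRNAs that had 10 or more reads in all.

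The RNF43 exon 9 circle, in contrast, had 5 and 19 reads in DDX5 and 0 reads in both NC libraries. In RPM these were 63.8 and 316, for a mean of 190 ± 178 RPM (SD, n = 2) and a rank of 2090. The groups did not overlap, although the lower DDX5 library lay close to the floor of the NC libraries. With a floor of 3 reads over the NC group, the DDX5 mean was at least 10.8-fold higher. The bound rested mainly on DDX5 replicate 2 and was at least 3.64-fold without it.

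Within RNF43 the balance of the 2 circles can be read inside each library, where depth does not enter. Exon 9 gave 17.2% (95% exact Clopper-Pearson interval 5.85 to 35.8%) of 29 RNF43 reads in DDX5 replicate 1 and 47.5% (31.5 to 63.9%) of 40 in DDX5 replicate 2. It gave 0 of 26 reads in NC replicate 1, which allows a share of up to 11.5% with a floor of 3 reads (Clopper-Pearson upper limit 13.2%), and 0 of 17 in NC replicate 2, which allows up to 17.6% (19.5%). The interval of DDX5 replicate 1 reached below both NC limits, whereas that of replicate 2 lay above them.

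The reads of both circles summed to 29 and 40 in DDX5 and 26 and 17 in NC for RNF43 as a host. The sums were 370 and 665 RPM against 355 and 174 RPM, so the groups were separated by little more than the worth of a read. The mean was 517 ± 208 RPM in DDX5 and 264 ± 129 RPM in NC (SD, n = 2 each), with a fitted log2 fold change of 0.91 (SE 0.86). RNF43 ranked 648 of 3532 host genes with reads by mean RPM.

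TGFBR2 showed different circles in different libraries. The circle of exons 5 to 6, which covers the transmembrane segment and most of the kinase domain, had 0 reads in both DDX5 libraries and 22 reads in each NC library, or 301 and 225 RPM. Its NC mean was 263 ± 53.8 RPM (SD, n = 2), and with a floor of 3 reads over the DDX5 group the DDX5 level was at least 12.1-fold lower. Leaving out any library in turn gave bounds from 5.27-fold, without DDX5 replicate 1, to 13.9-fold. Reads in both NC libraries and 0 in both DDX5 libraries were found for 293 (6.27%) of 4671 circRNAs, and 20 or more reads in both NC libraries, a limit set after the 22 reads were seen, for 10 (0.214%). Since TGFBR2 was selected on this difference, these shares are background and not a test.

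The other TGFBR2 circles were each read in 1 library. Exons 3 to 4 had 10 reads (102 RPM) and exons 2 to 4 had 5 reads (51.0 RPM), both in NC replicate 2 alone. The circle of exons 3 to 6, which shares its donor with the circle of exons 5 to 6, had 7 reads (89.3 RPM) in DDX5 replicate 1 alone. Against the group floors these were at least 2.36-fold and at least 1.18-fold higher in NC and at least 2.55-fold higher in DDX5. In each case the other library of the same group had 0 reads, so the groups overlapped.

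Of the TGFBR2 reads, exons 5 to 6 gave all 22 in NC replicate 1 (exact interval 84.6 to 100%) and 22 of 37 in NC replicate 2 (59.5%, 42.1 to 75.2%). In DDX5 replicate 1 it gave 0 of 7, which allows a share of up to 42.9% with a floor of 3 reads. As a host, TGFBR2 had 7 and 0 reads in DDX5 and 22 and 37 reads in NC, for means of 44.7 ± 63.2 RPM and 339 ± 54.5 RPM (SD, n = 2 each) and a rank of 1154. The groups did not overlap. The fitted log2 fold change was −2.87 (SE 1.78), and DDX5 replicate 1 was the only DDX5 library with TGFBR2 reads. Without it the DDX5 level was at least 6.80-fold lower.

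TNFRSF19 had no reads in either DDX5 library, and most of its NC reads were in a single library. Exons 6 to 7 had 8 and 20 reads in NC, or 109 and 204 RPM, for a mean of 157 ± 67.1 RPM (SD, n = 2) that put DDX5 at least 7.24-fold lower. Without DDX5 replicate 1 the bound was 3.14-fold and without NC replicate 2 it was 5.05-fold. The circles of exons 2 to 5 and exons 2 to 4, which carry the start codon, had 26 reads (265 RPM) and 16 reads (163 RPM) in NC replicate 2 and 0 in the other 3 libraries. For these 2 the groups overlapped at 0, and the bounds were at least 6.13-fold and at least 3.77-fold lower in DDX5. These bounds fell to 2.66-fold and 1.64-fold without DDX5 replicate 1.

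Within NC replicate 2, exons 2 to 5 gave 41.9%, exons 6 to 7 gave 32.3% and exons 2 to 4 gave 25.8% of 62 TNFRSF19 reads. In NC replicate 1 all 8 reads were of exons 6 to 7. The host sums were 0 and 0 in DDX5 and 109 and 633 RPM in NC, a mean of 371 ± 370 RPM (SD, n = 2) and a rank of 1187. The DDX5 level was at least 17.1-fold lower, and without NC replicate 2 it was at least 5.05-fold lower. In NC the SD of TNFRSF19 was thus about as large as its mean, whereas those of RNF43 and TGFBR2 were below theirs.

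**Figure D2:**
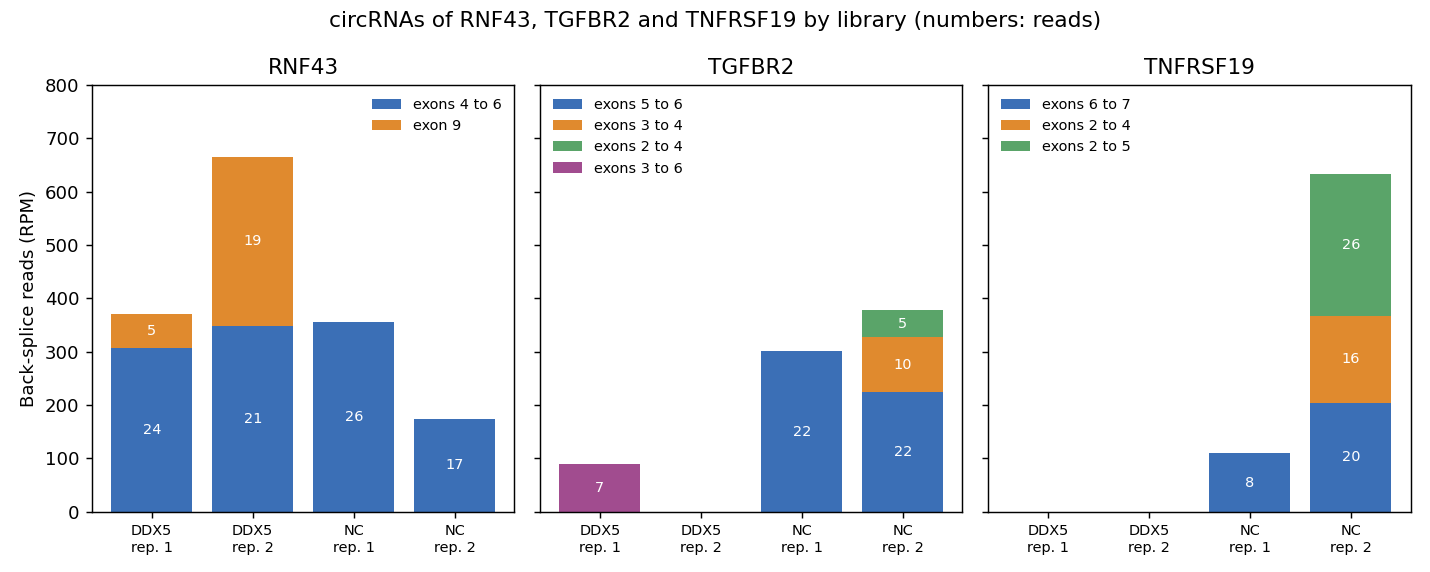
Level of each of the 9 circRNAs in RPM of back-splice reads, as segments of a stacked bar for each of the 2 DDX5 and the 2 NC libraries. Each gene has its own panel, the height of a whole bar is the host sum, and the numbers in the segments are reads. RNF43 exons 4 to 6 has reads in all 4 libraries, RNF43 exon 9 in the 2 DDX5 libraries (63.8 and 316 RPM), TGFBR2 exons 5 to 6 in the 2 NC libraries (301 and 225 RPM), and 5 circles lie at 0 in 3 of 4 libraries.

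Reads in a single library are frequent in these tables. All reads fell in 1 library for 1369 (29.3%) of the 4671 circRNAs with at least 10 reads, and in NC replicate 2, the deepest library, for 579 (12.4%). When a circRNA had 10 or more reads in a library, the other library of its group had 0 in 35.6% of 8497 cases, among them 3 of 11 for the 9 circles. All 3 were cases of NC replicate 2. At 20 or more reads this still held in 17.6% of 4064 cases, with 1 of 7 for the 9 circles, the circle of TNFRSF19 exons 2 to 5. The part of library sampling in the zeros of the 3 genes was not tested.

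Calls across the whole table give the background against which the 3 genes can be read. Of the 9 circles, 7 had the total of at least 10 reads needed to enter the edgeR quasi-likelihood test, and the TGFBR2 circles of exons 2 to 4 and 3 to 6, with 5 and 7 reads, did not. At an adjusted p under 0.05 the test called 4 of 4671 circRNAs (0.0856%), and 0 of these 7 were among them. At an unadjusted p under 0.05 it called 124 (2.65%). Both DDX5 libraries lay above both NC libraries for 503 circRNAs (10.8%), of the 7 only RNF43 exon 9. Both NC libraries lay above both DDX5 libraries for 586 (12.5%), which included TGFBR2 exons 5 to 6 and TNFRSF19 exons 6 to 7. The same contrast chose the 3 genes, so these counts are no test of their circles.

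For host sums, edgeR called 0 of 2703 tested genes (0.0%) at an adjusted p under 0.05, and DESeq2 called 1, none of the 3. At an unadjusted p under 0.05 edgeR called 68 (2.52%). Both DDX5 libraries lay above both NC libraries for 356 genes (13.2%), RNF43 among them, and the reverse held for 426 (15.8%), which included TGFBR2 and TNFRSF19. Nothing is read from these counts for the 3 genes, since the same contrast chose them. The median log2 fold change was −0.27 over all tested circRNAs and −0.13 over all tested hosts. Scaling by library totals alone moved the former by 0.10. Leaving out DDX5 replicate 1 moved the circRNA median further, to −0.92, and leaving out NC replicate 2 moved it to 0.05. It was −0.34 without DDX5 replicate 2 and −0.18 without NC replicate 1. RNF43 exons 4 to 6 alone among the 7 circles changed its fitted sign with the setting, from −0.17 to 0.76. Each of the others had 0 reads in both libraries of a group, so its sign could not change and says nothing about stability.

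Other hosts had much the same profile as each of the 3 genes. Likeness was the Euclidean distance of log2(host RPM + 10) over the 4 libraries, with no test. Nearest to RNF43 was PNN, which encodes pinin, a nuclear protein tied to splicing, at a distance of 0.18, with 32 and 38 reads in DDX5 and 27 and 16 in NC, and then RAB2A, a small GTPase (0.36), and the helicase gene DHX33 (0.57). Close to TGFBR2 were LAPTM4B, a lysosomal membrane protein gene, at 0.39, with 9 and 0 reads in DDX5 and 23 and 32 in NC, and WDR4 (0.55). Nearest to TNFRSF19 was LONP2, a peroxisomal protease, at 0.18, with 0 and 0 reads in DDX5 and 9 and 66 in NC. The next for TNFRSF19 were USP36 and MAST2, at 1.02 and 1.04. None of these hosts belonged to the Wnt, TGF-beta or TNF receptor lists below.

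The rest of the pathways was read from 8 lists, with the 3 genes left out. Of 190 listed genes, 52 had circRNA reads and 38 entered the host test. In edgeR's quasi-likelihood test 0 of the 38 passed an adjusted p under 0.05 in either direction, and DESeq2 also called 0. At an unadjusted p under 0.05, 1 was higher (CSNK1G1) and 0 were lower, beside 30 higher and 38 lower of all 2703 tested hosts. The fitted log2 fold change was above 0 for 14 and below 0 for 24, beside 1230 and 1473 of all tested hosts, and its median was −0.26 beside −0.13. Groups that do not overlap, as named for some hosts below, are frequent in these data. Of all tested hosts, 13.2% had both DDX5 libraries above both NC libraries and 15.8% had the reverse.

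Among Wnt receptors and their turnover, 7 of 21 genes had circRNA reads and 6 were tested, with a median log2 fold change of 0.43. The co-receptors LRP5 and LRP6, whose surface level RNF43 controls, were the most abundant hosts. LRP5 had 199 and 140 reads in DDX5 and 171 and 174 in NC, with means of 2433 ± 150 and 2057 ± 396 RPM (SD, n = 2 each). LRP6 had 161 and 147 reads against 191 and 252, with means of 2248 ± 275 and 2591 ± 26.7 RPM. LRP5 overlapped between the groups and LRP6 was lower in both DDX5 libraries, but their log2 fold changes of 0.20 (SE 0.30) and −0.26 (SE 0.28) did not pass the test. ZNRF3, the paralogue of RNF43 and picked after its values were seen, had 17 and 0 reads in DDX5 and 0 and 13 in NC. No Frizzled gene had a circRNA read in the tables used here, and neither did any of 36 genes for Wnt ligands, their secretion and their antagonists.

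Of the cytoplasmic Wnt components, 12 of 25 had reads and 8 were tested (median −0.99). The scaffold gene AXIN1 had 176 and 27 reads in DDX5 and 180 and 224 in NC, a DDX5 mean of 1347 ± 1271 RPM with a low replicate 2, and its groups did not overlap in RPM (2246 and 449 against 2460 and 2287). AXIN2, a Wnt target that feeds back on the pathway, had 7 and 28 reads in DDX5 and 27 and 77 in NC. CSNK1G1, a casein kinase 1 gamma of the family that phosphorylates LRP6, had 38 and 20 reads in DDX5 and 0 in both NC libraries. It was at least 23.3-fold higher in DDX5, with an edgeR unadjusted p of 0.00419 and an adjusted p of 1.00. Of nuclear Wnt factors, 6 of 15 had reads and 5 were tested (median −0.27). The acetyltransferase gene CREBBP had 3305 and 3074 RPM in the DDX5 and 3690 and 3746 RPM in the NC libraries, groups that did not overlap, and CTNNBIP1, an inhibitor of beta-catenin, had 28 and 0 reads in DDX5 and 5 and 35 in NC.

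In the TGF-beta superfamily, 5 of 14 other receptor genes had reads and all 5 were tested (median −0.65). TGFBR1, the partner of TGFBR2, had no circRNA read in these tables either. The activin receptor gene ACVR2A had 51 and 27 reads in DDX5 and 52 and 95 in NC, and BMPR2, a type II receptor for BMPs, had 130 and 92 against 121 and 121, with log2 fold changes of −0.65 (SE 0.57) and 0.10 (SE 0.37) that did not pass the test. In RPM the groups of ACVR2A did not overlap (651 and 449 against 711 and 970) and those of BMPR2 did. ACVR2A and BMPR2, the most abundant of these hosts, had reads in all 4 libraries, unlike TGFBR2. The less abundant receptor hosts also lacked reads in some libraries. ACVR1 had 0 and 5 reads in DDX5 and 19 and 5 in NC, ACVR1B had 0 and 12 against 0 and 0, and ACVR2B had 0 and 0 against 0 and 13. Among ligands and latent binding proteins, 5 of 21 had reads and 2 were tested. TGFB1, the ligand of TGFBR2, had 27 and 24 reads in DDX5 and 0 and 35 in NC, and LTBP4, which holds latent TGF-beta in the matrix, had 16 and 25 against 0 and 23.

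Of SMADs and their regulators, 10 of 21 had reads and 6 were tested (median −1.06). SMAD5, a SMAD of BMP signalling, had 579 ± 169 RPM in DDX5 and 436 ± 18.0 RPM in NC, groups that lay close but did not overlap. TRIM33, a ubiquitin ligase that acts on SMAD4, had 160 ± 9.23 and 256 ± 13.7 RPM, groups that did not overlap, with a log2 fold change of −0.72 (SE 1.34) on 12 and 10 against 18 and 26 reads. Of the TNF receptor superfamily and its adaptors, 7 of 37 had reads and 6 were tested (median −0.16). TNFRSF21, or death receptor 6, had 183 and 144 reads in DDX5 and 78 and 173 in NC, or 2335 and 2393 RPM against 1066 and 1766 RPM, groups that did not overlap, and the kinase gene RIPK1 had 63 and 47 against 55 and 103. Their log2 fold changes of 0.69 (SE 0.36) and −0.24 (SE 0.50) did not pass the test.

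**Figure D3:**
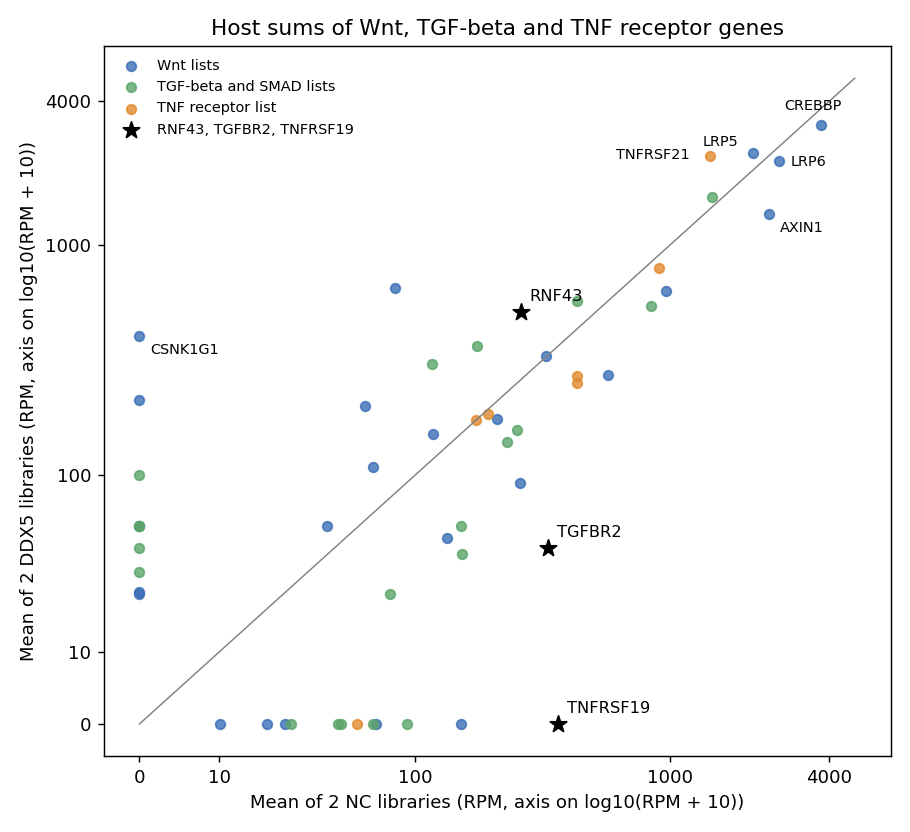
Host sums of circRNA reads for the listed Wnt (blue), TGF-beta and SMAD (green) and TNF receptor (orange) genes with reads and for RNF43, TGFBR2 and TNFRSF19 (stars), as the mean RPM of the 2 NC libraries against that of the 2 DDX5 libraries, on axes of log10(RPM + 10). The line marks equal means. Of the abundant hosts, LRP5, LRP6 and CREBBP lie near it, AXIN1 (2373 against 1347 RPM) lies below it and TNFRSF21 (1416 against 2364 RPM) above it. The star of RNF43 (264 against 517 RPM) lies above the line, and those of TGFBR2 (339 against 44.7 RPM) and TNFRSF19 (371 against 0 RPM) lie below it. Other listed hosts also lie at 0 in a group, such as TNKS (153 against 0 RPM) and CSNK1G1 (0 against 409 RPM).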

How the data were processed

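The authors deposited, for every circRNA, raw counts of reads over its back-splice junction. A second deposited table holds RPM, the same counts per 1000000 back-splice reads of a library, and a recalculation differed from it by at most 0.00499 RPM. The study names CIRCexplorer2 and CIRI2 as callers, and BWA and hg38 are listed in the processing notes of the submitters. The smallest count above 0 was 2. Tool versions, and how the lists of the callers were joined, were not given in the sources used here.

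RNF43, TGFBR2 and TNFRSF19, the gene lists and the tests were chosen with earlier results of these data known. Counts of all circRNAs, and their sums per host gene, with a total of at least 10 reads entered edgeR's quasi-likelihood test (edgeR 4.0.16, R 4.3.3) with TMM factors and Benjamini-Hochberg adjustment at 0.05. The test was also run on simulated counts, with outcomes not reported here. That simulation was not set to match the frequency of zeros in these data. Each SE of a log2 fold change was its absolute value over the square root of the F statistic, and not an error given by the fit. Folds against a group at 0 used a floor of 3 reads over the group, and shares of reads have 95% Clopper-Pearson intervals. Exons and sequences came from matching circle spans to GENCODE 29 transcripts in Python 3.11.15. Named pathway hosts were those with an unadjusted p under 0.05 and the 2 of highest mean RPM per list, and the 3 nearest hosts per gene, of which 1 is not reported here. DESeq2 1.42.0, limma 3.58.1, other scaling and filters, and leaving out each library were the alternatives. Deviations of libraries with the same replicate number correlated at −0.03 over 1011 circRNAs, so the numbers were not taken to pair libraries. The labels give DMEM as the growth medium and the study RPMI.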

Additional observations from a re-analysis of the deposited data

How the results depend on the processing

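The count of circRNAs called at an adjusted p under 0.05 was 4 in edgeR, 2 in DESeq2 and 0 in limma on log2(RPM + 1), and 0 with a minimum total of 20 reads. It ran from 0 to 33 when each library was left out in turn, with 0 and 7 calls when DDX5 replicate 1 or 2 was dropped and 33 and 19 when NC replicate 1 or 2 was. The count of host genes was 0 in edgeR, 1 in DESeq2 and 2 with no filter beyond 1 read, and ran from 0 to 12 with a library left out, where it was 12 without NC replicate 1 and 4 without NC replicate 2. With a replicate block the counts were 13 circRNAs and 3 host genes, although the libraries share only a number (r = −0.03). No pathway host, and no circRNA or host sum of RNF43, TGFBR2 or TNFRSF19, passed the adjusted threshold in the settings where it had reads enough to be tested. With a minimum of 20 reads 5 of the circles were tested, and without NC replicate 2 only 3 of them and 2 of the 3 hosts, TNFRSF19 being left out, and all 9 circles were tested only with no filter beyond 1 read. The cause of the differing counts was not tested.

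The fitted log2 fold change of RNF43 as a host was 0.48 or higher under every alternative run. That of TGFBR2 ran from −7.74 to −1.92 and that of TNFRSF19 from −8.68 to −7.15. The lower end for TGFBR2, fitted without DDX5 replicate 1, and all values for TNFRSF19 came from fits in which the DDX5 libraries used were at 0. Their size depends on how each method treats a 0, which in edgeR is set by the prior count. The median detected circRNA had 13 reads over the 4 libraries, beside a floor of 3 reads for a count of 0.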
